A study of Mus musculus with 4 samples.

Results

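The radiation response of microRNAs in metastases was set against that in the primary tumour of the same mouse model. For each microRNA the response at a site was the log2 level on the 10 Gy array minus the log2 level on the sham array, and the response difference was the metastases response minus the primary tumour response. By arithmetic it is also the difference between the sites (metastases minus primary tumour) after 10 Gy minus the same difference under sham, so it tells whether the sites came closer together or moved apart. Members were the mouse microRNA probes whose spots stood above the empty spots of the chip on at least 2 of the 4 arrays, which held for 374 of 700 probes. Of these, 180 were detected on all 4 arrays, 95 on 3 and 99 on 2, while 118 probes detected on 1 array and 208 detected on none were left out.

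The tumours were 4T1, a mouse mammary carcinoma line that spreads spontaneously from the mammary gland. Orthotopic injection of 50000 cells was given to 20 female Balb/s mice, and at a tumour size of 1 cm3 the primary tumour was exposed to sham radiation in 10 mice and to 10 Gy in the other 10. Mastectomy followed, and metastatic tumours grew until the end point. The 4 groups were thus sham-treated primary tumour, primary tumour given 10 Gy, metastases of sham-treated mice, and metastases of mice whose primary tumour had received 10 Gy. Radiation was given to the primary tumour in all cases, and the labels state neither the organ of the metastases nor whether RNA was pooled over animals. Each group had 1 one-colour array, so no value below has a replicate check or a test, and the number of arrays limits the precision. An error after ± is the SD over the 5 spots of a probe taken at the same position on the arrays compared, which covers scatter within the chips only.

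MicroRNAs are short RNAs that guide Argonaute proteins to messenger RNAs, mostly through the seed, bases 2 to 8 of the mature strand. Family members share a seed and so share many targets, while members of a genomic cluster are cut from 1 primary transcript and can carry different seeds. A family can be spread over several clusters, as with the miR-17 family, which acts downstream of Myc and E2F and holds back cell cycle inhibitors. In tumour tissue many microRNAs also report the cells present: miR-143 and miR-145 mark smooth muscle and fibroblasts, miR-223 marks neutrophils and other myeloid cells, miR-1 and miR-206 mark muscle, and miR-122 marks hepatocytes. In bulk RNA, fewer cells of a type and less RNA per cell cannot be told apart.

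The sequences that the results turn on are given 5′ to 3′ from RefSeq (GRCm38.p6), with the seed in capitals. The first set holds microRNAs with a run of alternating U and G. This feature was held by 14 of the 40 microRNAs whose sites came together by 1 or more after 10 Gy, and by 22 of all 374 members. Their genes lie on chromosome 5 (Mir574 and Mir1187), the X chromosome (Mir672) and chromosome 1 (Mir206), and let-7b from chromosome 15 is shown because it holds such a run and behaved differently.
miR-574-5p: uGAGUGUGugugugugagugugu
miR-1187: uAUGUGUGuguguauguguguaa
miR-672: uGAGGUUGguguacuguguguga
miR-206: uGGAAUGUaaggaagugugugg
let-7b: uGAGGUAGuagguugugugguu

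The second set is the miR-17 seed family, shown because 5 of its 6 members were 1 or more lower in the metastases response than in the primary response. Over all members 13.9% were lower by as much. Mir17 and Mir20a lie on chromosome 14, Mir93 and Mir106b on chromosome 5, and Mir106a and Mir20b on the X chromosome, and all 6 carry the seed AAAGUGC.
miR-17: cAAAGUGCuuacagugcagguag
miR-20a: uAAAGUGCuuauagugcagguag
miR-93: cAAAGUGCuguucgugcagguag
miR-106a: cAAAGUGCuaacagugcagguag
miR-106b: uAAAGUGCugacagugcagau
miR-20b: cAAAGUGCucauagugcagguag

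The third set holds miR-223, whose sites moved apart, and the arms of Mir214 (chromosome 1), which went in opposite directions.
miR-223: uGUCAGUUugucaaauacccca
miR-214: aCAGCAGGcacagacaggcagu
miR-214*: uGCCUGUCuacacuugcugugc

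The arrays differed in background and in the number of probes detected. The median intensity of the empty spots lay between 171 and 252 on 3 arrays and at 417 on the primary 10 Gy array, and 186 to 459 probes were detected per array, fewest on the primary 10 Gy array. Levels were therefore quantile normalized over the 700 probes, and members that are dim on some arrays are given with bounds where these exist. As a check of the tissue, the epithelial miR-200 family had 1 of its 5 members detected on each primary tumour array, although 4T1 is an epithelial line, and 5 of 5 on each metastases array. The summed intensity of the family above the empty spots was 61.1 and 40.4 on the sham and 10 Gy primary arrays and 6961 and 3659 on the metastases arrays. Endothelial miR-126-3p was also detected on all 4 arrays.

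Over the 374 members the response difference had a median of -0.06 and ranged from -2.95 to 5.26 on the log2 scale. It was 1 or more for 53 members (14.2% of 374) and -1 or less for 52 (13.9%), which makes 105 (28.1%) with a 2-fold difference between the responses. Scaling each array to its 75th percentile gave 30 and 168 in place of 53 and 52, with the median of all members moved to -0.94. Once that median was subtracted, the split was 73 and 25. Of the 53, 29 were detected on all 4 arrays and another 10 had a lower bound of at least 1. Of the 52, 43 were detected on all 4 arrays and 4 more had an upper bound of -1 or less.

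In the quantile-normalized values the primary tumour had the larger responses. In the primary tumour, 58 members (15.5%) were higher by 2-fold or more after 10 Gy and 57 (15.2%) lower by as much. In metastases the counts were 13 (3.48%) and 12 (3.21%), and the median size of the response was 0.22, against 0.52 in the primary tumour. The primary response was the larger in size for 94 of the 105 members and the metastases response for 11. This depended on the scaling: without normalization the median size was 0.49 in the primary tumour and 0.59 in metastases, and the primary response was the larger for 68 of 111 members with a 2-fold response difference. A description chosen after the values were seen asks which array lies farther from its neighbour than the range of the other 3. Among the 105 members with a 2-fold response difference, the sham primary array stood high for 39 and low for 13 by this description. The primary 10 Gy array stood high for 24 and low for 2. A metastases array stood apart for 7, and none did for 20. Over all members the sham primary array stood high for 64 and low for 34. The primary 10 Gy array stood high for 51 and low for 19, and no array stood apart for 168. By arithmetic, an array that stands apart fixes the sign of the response difference, so the signs are not a separate result. Each of these arrays is a single library, and its share in the differences could not be checked against a second one.

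**Figure D1:**
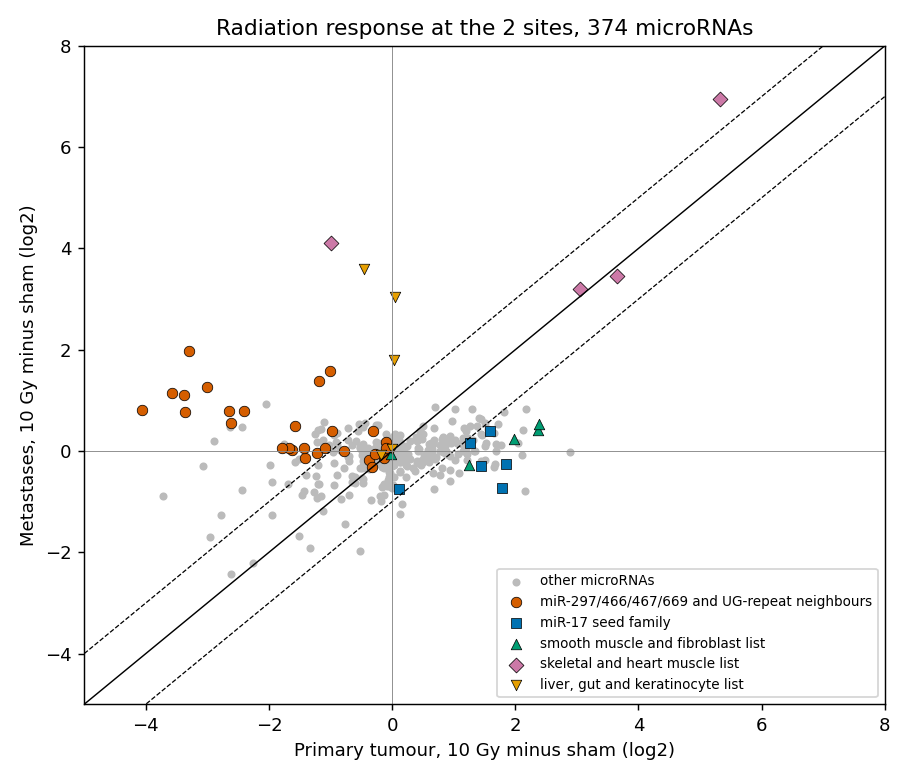
Log2 response to 10 Gy in the primary tumour (horizontal) and in metastases (vertical) of the 374 members, 1 point per microRNA, from 1 array per group. The solid line marks equal responses and the dashed lines a response difference of 1. The points spread more widely along the horizontal axis (median size 0.52) than along the vertical one (0.22), the repeat family lies to the upper left and the miR-17 seed family to the lower right.

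The sites came closer by at least 1 on the log2 scale for 40 members (10.7%) and moved apart by as much for 29 (7.75%). The gap between sites, the absolute log2 difference, was 1 or more for 128 members under sham, of which 64 (17.1%) were higher and 64 (17.1%) lower in metastases. After 10 Gy it was 1 or more for 91, with 48 (12.8%) higher and 43 (11.5%) lower. In 52 members it was 1 or more in both arms, always with the same sign. Since the response difference contains the sham gap, a narrowing from a large sham gap is partly built into the measure, and no correlation between them is given. The site differences in the sham and the 10 Gy arm come from separate arrays and correlated with r = 0.58 (Pearson) and rho = 0.56 (Spearman) across the 374 members, which share their arrays and are not independent.

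Of the 40 members whose gap narrowed, 32 were lower in metastases than in the primary tumour under sham and 8 were higher, and 12 crossed over in sign. With 75th percentile scaling 22 of the 53 that narrowed were lower in metastases under sham. Another 36 members had a 2-fold response difference but less than 1 of change in the gap. By arithmetic such members must go from one side of equality to the other, so their crossing is not a separate result. The miR-17 family, apart from miR-20b, is the main named case of such a crossing.

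**Figure D2:**
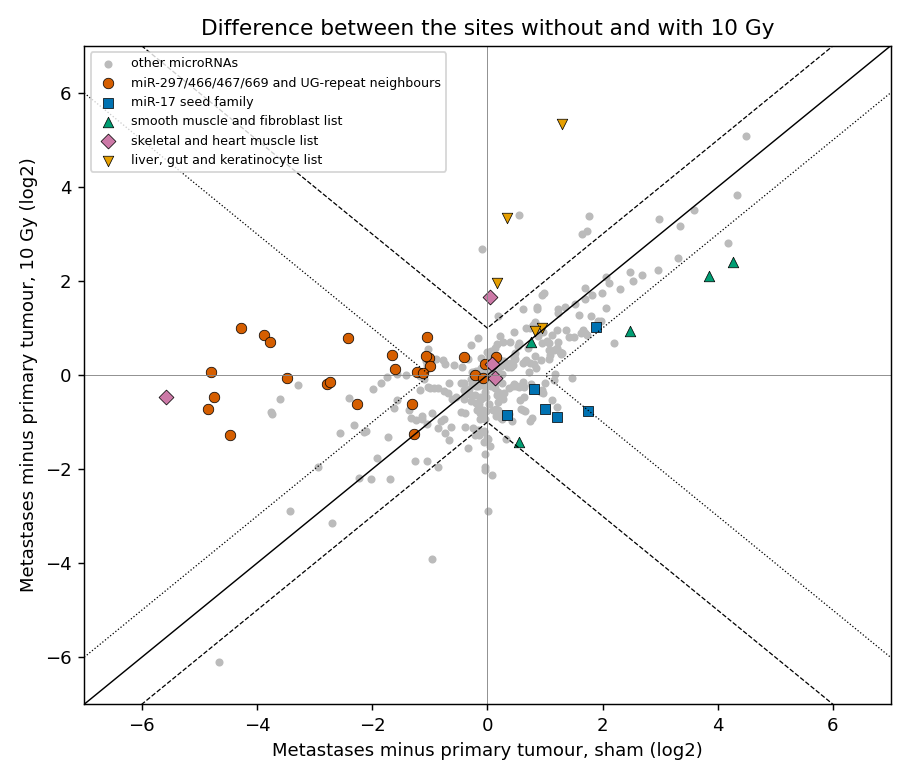
Log2 difference between metastases and primary tumour under sham (horizontal) and after 10 Gy (vertical), 1 point per member. Points inside the dotted wedges at left and right narrowed by 1 or more (40 members), points above or below the dashed lines widened by 1 or more (29), and the solid line marks no change. The median of the 24 members of the repeat family went from -1.25 under sham (range -4.80 to 0.16) to 0.21 after 10 Gy. Of these 24, 8 were detected on the primary 10 Gy array.

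The microRNAs of the repeat-rich family miR-297, miR-466, miR-467 and miR-669 converged in part, with 12 of 24 members narrowing by 1 or more, beside 10.7% of all members. Most genes of the family form a large tandem cluster within Sfmbt2 on chromosome 2. miR-466f read 13.66 in the sham and 10.37 in the 10 Gy primary tumour, against 9.39 in the sham and 11.36 in the 10 Gy metastases. It was thus 9.80-fold lower after 10 Gy in the primary tumour and 3.92-fold higher in metastases, a response difference of 5.26 ± 0.19. The site difference went from -4.27 under sham to 0.99.

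miR-466h read 12.90 on the sham and 8.85 on the 10 Gy primary array, and 8.10 and 8.91 on the metastases arrays in the same order. miR-466j read 13.47 and 10.46 in the primary tumour and 8.73 and 10.00 in metastases. Their response differences were 4.87 ± 0.30 and 4.28 ± 0.25. In each case the sham primary array stood far above the other 3, and after 10 Gy the site difference was 0.07 for miR-466h and -0.47 for miR-466j.

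Of 48 listed probes of this family, 24 were members, and 16 of the 24 had a response difference of 1 or more, none of -1 or less, and 12 narrowed by 1 or more. The shares over all members were 14.2%, 13.9% and 10.7% in that order. The family's median response difference was 1.42 with a range of 0.01 to 5.26, beside -0.06 for all members. It was 0.51 with scaling to the 75th percentile and 0.68 without background correction. Only 7 of the 24 were detected on all 4 arrays, where the median was 4.28. The number of the 24 that were detected was 21 on the sham primary array, 24 on the sham metastases array, 8 on the 10 Gy primary array and 18 on the 10 Gy metastases array. Their summed intensity above the empty spots was 53113, 3606, 1957 and 5141 in that order. miR-669e was undetected on the primary 10 Gy array and its difference had a lower bound of 4.48, and miR-669d had a lower bound of 2.40. Near-identical targets within the family mean that its probes can share signal and are not separate observations. By gene position, the cluster from Mir466m to Mir669h on chromosome 2 holds 71 genes and 18 members, of which 12 were at 1 or more and 10 narrowed, with a median of 1.502.

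The same pattern was seen in microRNAs from other loci that carry UG repeats. miR-574-5p read 15.15 on the sham and 13.95 on the 10 Gy primary array, and 12.42 and 13.80 on the metastases arrays. miR-1187, whose sequence above is also almost entirely U and G, read 15.08 and 14.06 in the primary tumour and 12.29 and 13.86 in metastases. The response differences were 2.58 ± 0.15 and 2.59 ± 0.17, and the site differences fell in size from -2.72 to -0.15 and from -2.79 to -0.20. With miR-672 at 3.18 ± 0.17 and miR-468 at 4.13 ± 0.24, all 4 detected members of this list of 6 narrowed by 1 or more. Over all members 10.7% narrowed by as much. The list was drawn up with earlier results known, so its direction is a description.

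A run of at least 6 letters of alternating U and G, a feature chosen after the values were seen, was present in the targets of 33 of 700 probes (4.71%). Of the 22 such members, 17 had a response difference of 1 or more, none of -1 or less, and 14 narrowed, with a median of 2.58. Of the 352 members without such a run, 36 were at 1 or more, 52 at -1 or less and 26 narrowed, with a median of -0.10. Among members detected on all 4 arrays, 10 of 11 with a run and 19 of 169 without one were at 1 or more. The exception was let-7b, at 0.00 ± 0.15. Its run has the minimum length of 6 letters, as have those of miR-468 and miR-297a, which were at 4.13 and 3.43. Of the 22, 11 have no gene on chromosome 2, and 9 of those 11 were at 1 or more.

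Control probes did not move in 1 direction. Their differences were taken from log2 intensities above the empty spots, without offset or quantile normalization. They are thus on another scale than the members' values. The control named PUC2MM had intensities above the empty spots of 8486 and 7147 on the sham primary and sham metastases arrays, 1132 on the 10 Gy primary array and 6375 on the 10 Gy metastases array. Its response difference was 2.74, and the ratio of the control PUC2PM to PUC2MM was 1.55, 1.57, 4.21 and 1.65 in the same order. Over 18 control probes with signal on all 4 arrays, 5S ribosomal RNA probes included, the median response difference was 0.02 with a range from -1.20 (Ctr09-3M10) to 2.74. The file does not spell out these names. Among the 22 members with a UG run, the sham primary array stood high for 16, beside 64 of all 374 members. Whether hybridisation conditions on the primary 10 Gy array have a part in the change of the UG-repeat microRNAs was not tested.

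miR-206, a muscle microRNA induced by MyoD and expressed during myoblast differentiation, had the second largest response difference. It read 12.66 under sham and 11.67 after 10 Gy in the primary tumour, and 7.09 under sham and 11.20 after 10 Gy in metastases. The sham metastases array was the low one, and the difference was 5.11 ± 0.33, with the site difference going from -5.57 to -0.47. miR-206 also holds a UG run of 7 letters.

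The other muscle microRNAs behaved differently from miR-206. miR-1, which is the most abundant microRNA of skeletal and heart muscle, read 6.55 and 6.59 on the sham primary and metastases arrays and 11.87 and 13.54 on the corresponding 10 Gy arrays. miR-133a read 6.63 and 6.76 under sham and 10.28 and 10.22 after 10 Gy, and miR-133b 6.56 and 6.64 under sham and 9.61 and 9.85 after 10 Gy. All 3 were near background on both sham arrays and high on both 10 Gy arrays. Their response differences were 1.62 ± 0.31 for miR-1, -0.20 ± 0.28 for miR-133a and 0.16 ± 0.38 for miR-133b. The gap of miR-1 thus widened. The values of the miR-133 pair depended on the processing: miR-133a turned positive with 75th percentile scaling, cyclic loess, no normalization and both centred scalings, and miR-133b turned negative with the median of spots. The highest values under any alternative were 1.07 for miR-133a and 1.43 for miR-133b, and without normalization the gaps widened by 0.78 and 1.13. Mir133b and Mir206 are neighbours on chromosome 1, yet their probes differed in response difference by the amounts given. Of 7 muscle probes listed, 4 were members, and miR-208a, miR-208b and miR-499, the microRNAs of myosin genes, were not.

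Smooth muscle and fibroblast microRNAs converged from the opposite side. miR-143 read 7.41 on the sham and 9.79 on the 10 Gy primary array, and 11.67 and 12.20 on the metastases arrays. miR-145, from the same transcript, read 7.92 and 9.90 in the primary tumour and 11.78 and 12.01 in metastases. Both were low on the sham primary array and nearly level in metastases, so that the site difference went from 4.26 to 2.41 and from 3.85 to 2.11. The response differences were -1.85 ± 0.32 and -1.74 ± 0.16.

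miR-199a-3p, expressed in mesenchymal cells, followed with 8.71 and 9.97 in the primary tumour and 11.18 and 10.90 in metastases, a difference of -1.54 ± 0.28. Of the 5 members of this list, 4 were at -1 or less and 3 narrowed, beside 13.9% and 10.7% over all members, with a list median of -1.74. The median was -0.97 without normalization and -0.67 once the median of all members was subtracted. The exception was miR-199a-5p at -0.06 ± 0.33, which was not detected on the primary 10 Gy array. Without normalization the gap change was -1.33 for miR-143, -0.85 for miR-145 and -0.97 for miR-199a-3p.

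miR-214, from the same transcript as miR-199a, crossed over instead. It read 9.53 and 11.90 in the primary tumour and 10.08 and 10.49 in metastases, with a site difference of 0.55 under sham and -1.41 after 10 Gy. The other arm of the precursor, miR-214*, read 9.95 and 7.51 in the primary tumour and 6.21 and 6.68 in metastases. The response differences were -1.97 ± 0.21 for miR-214 and 2.91 ± 0.39 for miR-214*.

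The miR-17 seed family, apart from miR-20b, was higher in metastases than in the primary tumour under sham and lower after 10 Gy. miR-17 read 10.35 under sham and 12.20 after 10 Gy in the primary tumour, and 11.56 and 11.31 in metastases. miR-20a read 10.90 and 12.34 in the primary tumour and 11.90 and 11.62 in metastases, and miR-106a 8.10 and 9.88 in the primary tumour and 9.85 and 9.11 in metastases. In all 3 the primary 10 Gy array was the highest of the 4 and the sham primary array the lowest. Response differences were -2.10 ± 0.07, -1.73 ± 0.21 and -2.52 ± 0.25.

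Of the 6 family members, 5 were at -1 or less, beside 13.9% over all members, and the exception was miR-20b at -0.85 ± 0.36. The median was -1.46, with a primary response of 1.52 and a metastases response of -0.27, and the median site difference went from 1.10 under sham to -0.75 after 10 Gy. None narrowed or widened by 1 or more. The site difference of miR-20b stayed positive, at 1.88 under sham and 1.03 after 10 Gy, and the others crossed from one side to the other. Without normalization the median primary response was 0.18, the median metastases response -0.92 and the median site difference after 10 Gy 0.42. Which site changed and the crossing thus depend on the scaling. The median response difference kept its sign under all alternatives run, and was -0.63 once the median of all members was subtracted.

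By genomic cluster, the family's loci gave smaller values. The Mir17 to Mir92-1 cluster on chromosome 14 had 6 members, 4 of them at -1 or less, and a median of -1.21. In it, miR-92a at -1.26 ± 0.09 and miR-18a at -1.16 ± 0.13, which carry other seeds, narrowed by 1 or more, whereas miR-19b was at -0.19 ± 0.19. The Mir25 to Mir106b cluster on chromosome 5 had 2 of 4 members at -1 or less (median -0.87), and the Mir363 to Mir106a cluster on the X chromosome 2 of 5 (median -0.85). The probes for miR-92a and miR-19b count in both the chromosome 14 and the X cluster. Over all members 13.9% were at -1 or less.

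Several other families went the same way. miR-103 read 10.04 and 11.56 in the primary tumour and 10.46 and 10.57 in metastases, and with miR-107, from a paralogous pantothenate kinase intron, it made a family in which 2 of 2 were at -1 or less (median -1.26). The miR-181 family, known from lymphocyte differentiation, had 2 of 4 at -1 or less (median -1.04), beside 13.9% over all members. In the miR-23, miR-24 and miR-27 clusters it was 2 of 5 (median -0.95), namely miR-23b at -1.34 ± 0.17 and miR-23a at -1.16 ± 0.18. For miR-23a, levels were 13.14 and 14.30 in the primary tumour against 14.13 and 14.13 in metastases. For miR-103, miR-107, miR-23a and miR-23b the metastases response lay between 0.00 and 0.21, and the primary response between 1.16 and 1.51. Without normalization the same 4 had metastases responses from -0.82 to -0.65 and primary responses from 0.03 to 0.27, so which site changed depends on the scaling. These medians kept their sign under all alternatives run, and with the median of all members subtracted they were smaller in size: -0.51 for miR-103 with miR-107 and -0.68 for miR-181.

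**Figure D3:**
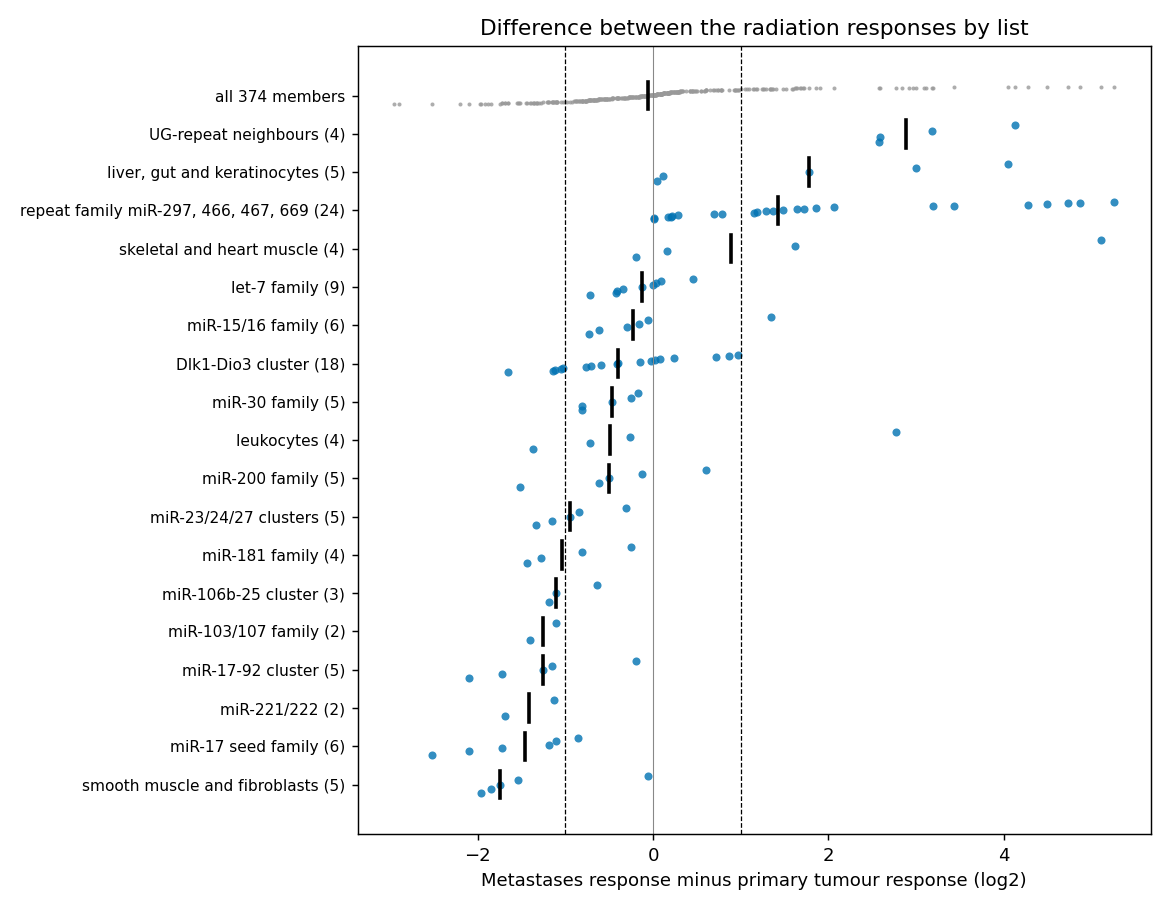
Response difference (metastases minus primary tumour, log2) of each member of 18 lists, 1 point per microRNA, with the median as a bar and the number of members in brackets. The dashed lines mark -1 and 1. The UG-repeat neighbours (median 2.88) and the repeat family (1.42) lie to the right, and the smooth muscle list (-1.74) and the miR-17 seed family (-1.46) to the left of all 374 members (-0.06).

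A set of microRNAs diverged through a higher level on the primary 10 Gy array alone. miR-31, a regulator of invasion and metastasis in breast cancer models, read 11.97 and 13.66 in the primary tumour and 12.01 and 12.15 in metastases. miR-222 read 11.04 and 12.55 in the primary tumour and 11.36 and 11.18 in metastases. miR-99b read 11.31 and 12.64 in the primary tumour and 11.30 on both metastases arrays. The 3 sham and metastases levels of each lay close together and the primary 10 Gy level stood above them, with response differences of -1.55 ± 0.20, -1.69 ± 0.15 and -1.33 ± 0.18.

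miR-221, the partner of miR-222 in targeting the cell cycle inhibitor p27, was at -1.13 ± 0.21 and widened by 0.67. miR-320 was at -1.36 ± 0.19 and miR-132, a microRNA of neurons, at -1.10 ± 0.18, and both widened. Without normalization, the gap of miR-222 narrowed by 0.32 in place of widening by 1.04, and that of miR-99b widened by 0.06 in place of 1.33. The gap of miR-31 widened by 0.76 in place of 1.46 and that of miR-320 by 0.32 in place of 1.36, while that of miR-132 widened by 1.07 without normalization and 1.10 with it. The negative response difference of these microRNAs was found with and without normalization.

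The lowest response differences of all belonged to miR-698 (-2.95 ± 0.24) and miR-764-5p (-2.90 ± 0.35). miR-698 read 8.41 and 10.57 in the primary tumour and 7.45 and 6.66 in metastases. miR-764-5p read 6.59 and 9.48 in the primary tumour and 6.60 and 6.59 in metastases. Both were high on the primary 10 Gy array alone and widened. miR-212, which shares a transcript with miR-132, read 7.33 and 8.98 in the primary tumour and 7.29 and 6.97 in metastases, a difference of -1.97 ± 0.34. miR-351, of the X-linked cluster of miR-322, read 7.30 and 9.34 in the primary tumour and 8.52 and 8.67 in metastases, a difference of -1.89 ± 0.30, while miR-322 itself, undetected on the primary 10 Gy array, had a lower bound of -0.74. Upper bounds of -1 or less, from probes undetected on the sham primary or the metastases 10 Gy array, were found for miR-1191 (-2.10), miR-343 (-1.80), miR-1898 (-1.44) and miR-429 (-1.40). miR-1898 had a wide site gap in both arms, at -4.66 under sham and -6.10 after 10 Gy.

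Among members with a positive response difference whose sites moved apart were miR-203, miR-122, miR-711 and miR-223, with gaps wider by 4.05, 2.998, 2.84 and 2.60. miR-223, of myeloid cells, read 12.29 under sham and 9.22 after 10 Gy in the primary tumour, and 12.20 and 11.90 in metastases. The primary 10 Gy array was the low one, and its intensity above the empty spots was 256 against 4050 to 7354 on the others. The response difference was 2.77 ± 0.23 and the site difference went from -0.09 to 2.69. Other leukocyte microRNAs did not follow: miR-150, of mature lymphocytes, was at -1.37 ± 0.35, miR-155 at -0.72 ± 0.34 and miR-142-5p at -0.26 ± 0.38. The summed intensity of the 4 leukocyte members was 7772 and 13187 on the sham primary and metastases arrays and 615 and 5616 on the corresponding 10 Gy arrays.

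miR-711 read 12.64 and 8.91 in the primary tumour and 13.19 and 12.31 in metastases, a difference of 2.84 ± 0.23. It belongs to a list of GC-rich probes prone to pick up other RNA fragments. Of the list's 27 members, 5 were at 1 or more and 1 at -1 or less, beside 14.2% and 13.9% over all members. miR-15a, which represses Bcl2, read 8.98 and 7.41 in the primary tumour and 10.63 and 10.41 in metastases, a difference of 1.35 ± 0.28. The rest of the miR-15/16 family lay between -0.74 and -0.06.

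The metastases 10 Gy array alone was high for 3 microRNAs of other epithelia. miR-203, of keratinocytes and other stratified epithelia, read 6.66 and 6.21 in the primary tumour, 7.95 on the sham metastases array and 11.56 on the metastases 10 Gy array. miR-122, which makes up most of the microRNA of hepatocytes, read 6.15 and 6.20 in the primary tumour, 6.48 on the sham metastases array and 9.53 on the metastases 10 Gy array. miR-205, of basal epithelial cells, read 6.09, 6.12, 6.27 and 8.07 in the same order. Since miR-203 was undetected on the primary 10 Gy array, its response difference of 4.05 ± 0.20 had a lower bound of 3.14. miR-122 and miR-205 were undetected on both primary arrays, so their differences of 2.998 ± 0.22 and 1.78 ± 0.25 have no bound.

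miR-192 and miR-194, of gut and liver, were level at 0.04 ± 0.46 and 0.11 ± 0.44, with signs that turned under 6 alternatives each. The summed intensity of the 5 members of the liver, gut and keratinocyte list was 142 and 43.8 on the primary arrays and on the metastases arrays 815 under sham and 4296 after 10 Gy. The tissue around the metastases is not given in the labels, and its part in these values was not tested.

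**Figure D4:**
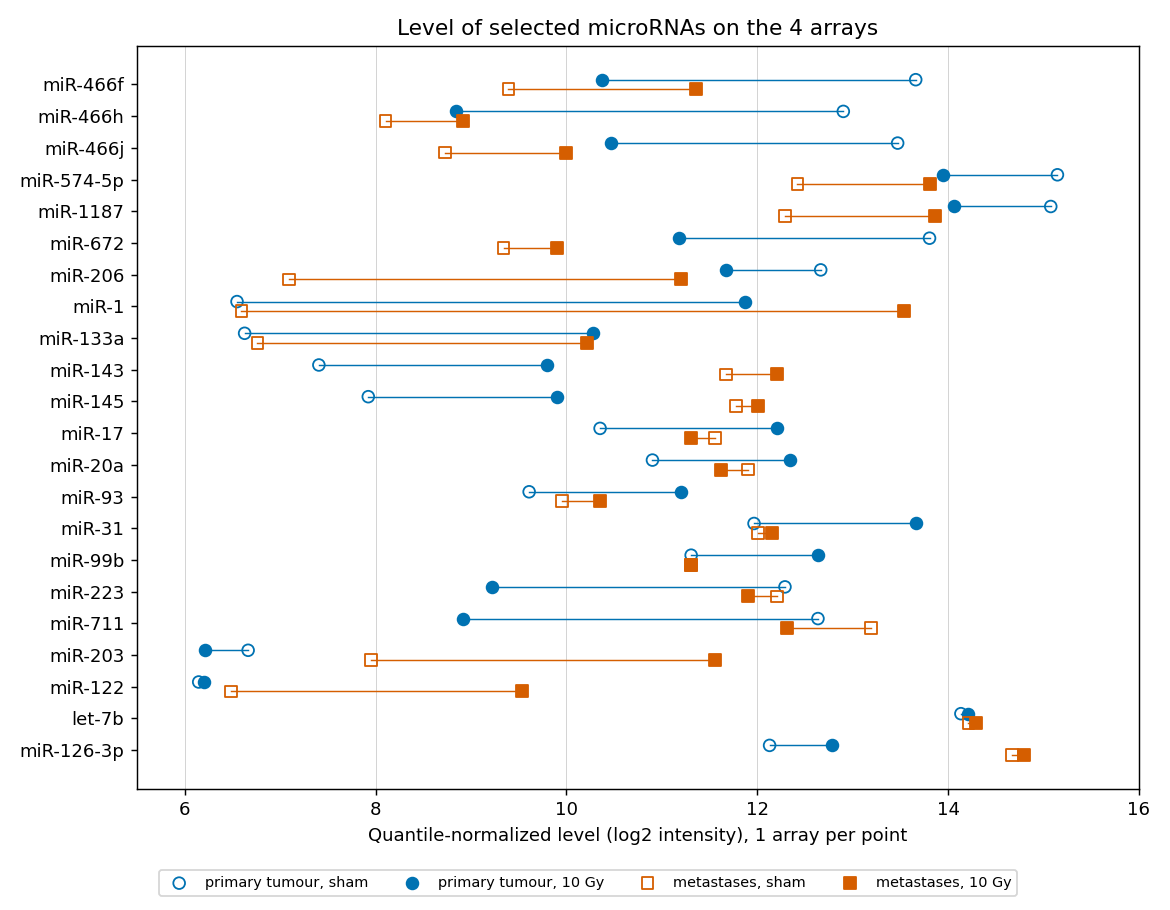
Quantile-normalized log2 level of 22 microRNAs on the 4 arrays, with circles for the primary tumour, squares for metastases, open symbols for sham and filled symbols for 10 Gy. Each symbol is 1 array and there are no error bars between arrays. From miR-466f to miR-206 the filled symbols lie closer together than the open ones, from miR-31 to miR-122 they lie farther apart, and let-7b is level on all 4.

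The Dlk1-Dio3 cluster, a large imprinted cluster of microRNAs on chromosome 12, was mostly dim. Of 59 listed probes, 18 were members, 5 of them detected on all 4 arrays. Response differences of -1 or less were found for 5 (miR-668, miR-379, miR-409-3p, miR-127 and miR-667) and of 1 or more for none, with a median of -0.40, and 4 widened by 1 or more. The shares over all members were 13.9% at -1 or less, 14.2% at 1 or more and 7.75% widened. miR-127 read 6.96 and 8.78 in the primary tumour and 6.75 and 7.51 in metastases, a difference of -1.05 ± 0.52. The spot SD of miR-668, at 1.40, was nearly as large as its difference of -1.65.

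The miR-290 to miR-295 cluster on chromosome 7, expressed in embryonic stem cells, had 5 of 11 listed probes as members. miR-292-5p read 10.70 and 7.92 in the primary tumour and 9.61 and 8.35 in metastases, a difference of 1.52 ± 0.20. miR-294 was at 1.01 ± 0.53, and the other 3 lay between -0.05 and 0.26.

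The let-7 family, which represses Ras and Hmga2, showed no difference of 1 or more in any of its 9 members. let-7a read 14.32 on both primary arrays and 14.80 and 14.67 in metastases, a difference of -0.13 ± 0.15. let-7i at -0.72 ± 0.11 and let-7f at 0.46 ± 0.12 were the extremes, and the family median of -0.13 turned positive without normalization and with both centred scalings. miR-98 read 8.35 and 6.09 in the primary tumour and 10.41 and 8.19 in metastases, a metastases response of -2.22. Its probe was undetected on the primary 10 Gy array, so the primary response has only a bound.

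The median site difference of the miR-30 family, of epithelial cells, was 2.30 under sham and 1.84 after 10 Gy, and none of 5 members had a response difference of 1 in size. In the miR-200 family, miR-200c read 6.66 and 6.18 in the primary tumour and 11.14 and 11.27 in metastases, and miR-200b 6.11 and 6.04 against 10.45 and 9.88. miR-200b was undetected on both primary arrays and miR-200c on the primary 10 Gy array, so the gaps after 10 Gy are not measured values. In the quantile-normalized values miR-429 alone of the 5 had a difference of 1 or more in size, with an upper bound of -1.40. The family median of -0.50 was -2.23 with 75th percentile scaling, -1.71 with cyclic loess and -1.58 without normalization, and the gap of miR-200b narrowed by 2.23, 1.84 and 1.58 and that of miR-200a by 2.46, 1.71 and 1.81 in the same order. miR-126-3p of endothelium was at -0.53 ± 0.14, and miR-451 and miR-486 of red blood cells were at 0.33 ± 0.12 and -0.01 ± 0.15.

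Both responses were at least 1 in size and in the same direction for 11 members. Those higher after 10 Gy at both sites were the 3 muscle microRNAs miR-1, miR-133a and miR-133b. Those lower at both sites were miR-98, miR-874, miR-671-5p, miR-714, miR-1956, miR-1940, miR-292-5p and miR-29c. miR-98 and miR-29c were undetected on the primary 10 Gy array. The primary response of miR-29c was -1.12 here, 0.34 with 75th percentile scaling and -0.09 with cyclic loess, and the other 10 of the 11 kept both responses at 1 or more in size under these scalings. miR-874 read 12.01 and 9.39 in the primary tumour and 10.87 and 8.45 in metastases. Its responses of -2.62 and -2.42 left a difference of 0.20 ± 0.43. The responses at the 2 sites share no array, but both 10 Gy arrays belong to the same treatment arm.

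Some microRNAs outside these lists also converged with the sham primary array high. miR-1306 read 10.77 and 8.73 in the primary tumour and 7.01 and 7.94 in metastases, a difference of 2.97 ± 0.28. miR-877* had a lower bound of 2.81, since it was undetected on the primary 10 Gy array. At the other end, the 5 members with the smallest differences among those of high mean level were let-7b, let-7d at 0.09 ± 0.13, miR-705 at 0.08 ± 0.14, miR-709 at -0.07 ± 0.08 and miR-1224 at -0.10 ± 0.11. miR-709 read 15.31 on both primary arrays and 15.15 and 15.08 in metastases.

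The remaining families had medians under 1 in size. The miR-125 family (median -0.65), the family of miR-148a (-0.73) and the family of miR-130a (-0.74) had 1 of 3 members each at -1 or less, and their medians kept their sign under all alternatives run. The called members were miR-351, miR-152 at -1.52 ± 0.56 and miR-130b at -1.14 ± 0.36, and 13.9% of all members were at -1 or less. The family of miR-34a, a p53 target, had none of 3 called, and miR-34a was at -0.88 ± 0.32 with a primary response of 1.14 and a metastases response of 0.26. Medians of -0.54 for miR-146a and miR-146b, which restrain NF-kB signalling, of -0.49 for miR-182 and miR-183, of -0.56 for the family of miR-99a and miR-100 and of -0.05 for the miR-26 family turned positive once the members' median was subtracted after 75th percentile scaling, and those of the miR-146 and miR-26 families also with no normalization. The median of the miR-10 family, 0.07, turned negative under 4 alternatives.

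Sets built by rule draw largely on the same probes as the lists, so they are not a separate check of them. Of 13 seed families with at least 3 members, none had a median of 1 or more and 2 had one of -1 or less, the miR-17 and the miR-181 family. The median gap change was below 0 in 11, from -0.73 to -0.06, and above 0 in 2. Over all members it was -0.04, and 0.29 with 75th percentile scaling. Of 26 genomic clusters, 2 had a median of 1 or more, the chromosome 2 repeat cluster and Mir16-1 to Mir15a at 1.17, and 1 had a median of -1 or less, Mir17 to Mir92-1. The median gap change was below 0 in 15 clusters and above 0 in 11. Mir16-1 to Mir15a, on chromosome 14, rests on 4 probes, in which miR-16* at 3.11 ± 0.25 and miR-16 at -0.62 ± 0.12 went in opposite directions. The median of the miR-15/16 family list was -0.23.

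Both arms of a precursor were members in 52 pairs. In 32 pairs neither arm had a response difference of 1 in size and in 17 pairs only 1 did. Both did in the same direction for miR-151 (-1.69 ± 0.16 and -1.65 ± 0.28) and for miR-466f (4.73 ± 0.68 and 1.64 ± 0.34). The miR-214 pair was the 1 case in which they were opposite.

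Members just inside and just outside the detection rule differed in range. The 99 members detected on 2 arrays had response differences from -2.20 to 2.998, of which 12 were at least 1 in size, and the 118 probes detected on 1 array ranged from -0.83 to 0.98. Of members detected on all 4 arrays, 72 of 180 (40%) were at least 1 in size.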

How the data were processed

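MicroRNA was measured on 4 one-colour Cy3 arrays (µParaflo chips, 2 µg total RNA tailed with poly(A)), per the labels' protocols. The deposited scanner tables hold a mean intensity per spot, per the file headers, with 5 spots for each of 700 microRNA probes and 180 empty spots. Commas inside large values were removed. The authors' value table holds a deposited intensity per probe. Set against the scanner tables it was background-subtracted, and how its background was chosen is not given in the sources used here. It served as an alternative.

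Background was corrected by normexp with the empty spots as negative controls and an offset of 50 (limma 3.58.1, R 4.3.3), values were taken to log2, spots were averaged and arrays quantile normalized over the 700 probes. Detection on an array required 3 or more of the 5 spots to exceed the 95th percentile of the empty spots. Where a probe was undetected on some arrays, a bound used the higher of its own level and the lowest detected level there. A value was called when it was at least 1 in size on the log2 scale. Dim levels are shrunken by the offset. Of the 700 probes, 654 were matched to a RefSeq microRNA gene (GRCm38.p6), 549 of them by sequence and the rest by name. Clusters were genes with neighbours within 10 kb. The steps were tested on simulated data.

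The members, lists and rule for named microRNAs were chosen with earlier results of these data known. Named were the 10 highest and the 10 lowest values of probes with detection on all 4 arrays and a size over 2 times their spot SD, the 4 largest bounds each way, probes called in both responses, up to 4 members with the highest mean level of each list described, and the 5 members closest to 0 of high mean level (90th percentile or above). Others were named after their values were seen, among them miR-31, miR-99b, miR-320, miR-205, miR-19b, miR-18a and miR-668. Alternatives covered background, offset, normalization, spot summary, detection filter and the authors' table.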

Additional observations from a re-analysis of the deposited data

Results flagged for a closer look

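In 6 microRNAs the responses were at least 1 in size and of opposite sign at the sites, lower in the primary tumour and higher in metastases after 10 Gy. These differences were not tested, since each group has 1 array. The response difference was 5.26 for miR-466f, 4.73 for miR-466f-5p, 4.49 for miR-669e, 4.28 for miR-466j, 2.59 for miR-1187 and 2.58 for miR-574-5p. All 6 targets hold a UG run of at least 6 letters, and all but miR-669e were detected on all 4 arrays. With 75th percentile scaling the primary responses of miR-1187 and miR-574-5p were -0.23 and -0.27, and so under 1 in size.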

How the results depend on the processing

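The counts in the report are 53 members at 1 or more, 52 at -1 or less, 40 narrowed and 29 widened. Without background correction they were 32, 29, 25 and 17. Scaling to the 75th percentile gave 30, 168 and 80 for the first, second and last, and the members' median moved to -0.94. Cyclic loess gave 69 narrowed and 18 widened, and no normalization 68 and 19. Members detected on all 4 arrays alone gave 29 at 1 or more and 25 narrowed, with fewer probes by construction. The authors' deposited table, with 234 probes listed on all 4 arrays, gave 35 at 1 or more, 26 narrowed and 16 widened. With the members' median subtracted after 75th percentile scaling or without normalization, which are the same by arithmetic and were added after seeing the data, 25 were at -1 or less and 73 at 1 or more. The cause of these shifts was not tested. The other alternatives left each count within 1.5 times the reported one. Of 124 named microRNAs, the 57 with a difference at least 1 in size kept their sign under all 14 alternatives in which they had a value, as did the 10 lists with such a median. Dim probes near the empty spots limit the values of members detected on 2 or 3 arrays. No paired analysis was possible because each group has 1 array.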

Other observations

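Passenger strands, marked by a star in the array's names, made up 49 of the 374 members. Of these, 7 had a response difference of 1 or more (14.2% over all members) and 2 of -1 or less (13.9% over all members), and none of the 7 holds a UG run. miR-16* read 10.00 on the sham primary array and 7.37 on the primary 10 Gy array, and 6.39 and 6.87 on the sham and 10 Gy metastases arrays. miR-877* was at 9.73 on the sham primary array and between 6.43 and 6.84 on the other 3.

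Base composition differed little between the groups. The median GC content of the target was 47.8% for the 53 members at 1 or more, 52.2% for the 52 at -1 or less and 50% for the other 269.

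The probe mmu-5S-b1 for 5S ribosomal RNA had intensities above the empty spots of 9407 and 8788 on the sham and 10 Gy primary arrays and 21750 and 22223 on the metastases arrays. Its response difference, taken without quantile normalization as for the other controls, was 0.13. Those of the other 4 5S probes lay between -0.64 and 0.63.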
